A study of Rattus norvegicus with 10 samples.

Results

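The neural cell adhesion molecules and the enzymes that build polysialic acid were examined in the supraoptic nucleus of Wistar Han rats, by RNA sequencing of polyadenylated transcripts. The 10 genes were taken by symbol from the authors' table and joined by Ensembl identifier to the read counts. They are Ncam1, Ncam2, St8sia1, St8sia2, St8sia3, St8sia4, St8sia5, Cmas, Gne and Nans, out of 32402 genes listed, and each symbol had 1 identifier. All 10 passed the filter on low counts. The dehydrated group held 5 libraries from rats kept 72 h without drinking water, and the euhydrated group held 5 libraries from rats that drank freely. Water access was allotted by cage, and each nucleus was punched on both sides from frozen slices, so a library holds every cell type in the punch. In such tissue fewer cells of a type and less RNA per cell cannot be told apart. The labels do not state that every library is a different animal, and p-values therefore speak only of the spread among these 10 libraries, part of which may be technical.

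Polysialic acid is a long chain of sialic acid residues carried mainly by NCAM, the product of Ncam1, and its bulk and charge weaken contacts between cell membranes. The sugar is made in the cytosol, activated to CMP-sialic acid in the nucleus and transferred in the Golgi, where the polysialyltransferases encoded by St8sia2 and St8sia4 extend the chain. Most of the adult brain loses polysialylated NCAM, but the hypothalamic magnocellular nuclei keep it, and in them it is known to be needed for the withdrawal of astrocytes and the new synapses that follow sustained stimulation. The comparison of dehydrated with euhydrated rats thus asks whether transcripts of this pathway move under a stimulus known to drive that remodelling.

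Each library held 24268398 to 28491926 counts. All 7 markers of magnocellular neurones, the vasopressin and oxytocin genes among them, were detected, with a summed level of 11538 to 15315 CPM (read counts scaled to library size) in dehydrated libraries and 7862 to 11296 CPM in euhydrated libraries. Levels here are CPM after TMM scaling, an adjustment for differences in library composition. Gene lengths were not used, so levels are compared between groups for 1 gene and not between genes. Of all 15311 genes tested, 12.7% passed an edgeR adjusted p of 0.05, with 7.79% higher and 4.90% lower in dehydrated rats. Scaling to library totals alone turned the share of called genes that were higher to 43.5%, against 61.4% with TMM. In 10.9% of the genes tested the CPM of the groups did not overlap, with dehydrated libraries above in 6.90% and below in 3.97%.

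Ncam1 and Ncam2 did not pass the test, 1 polysialyltransferase was lower, and 1 other sialyltransferase and 1 gene of sialic acid supply were higher. St8sia4 was 1.23-fold lower in dehydrated than in euhydrated libraries. St8sia3, for a sialyltransferase that makes short sialic acid chains, was 1.17-fold higher, and Cmas, for the enzyme that activates sialic acid, was 1.07-fold higher. Of the 10 genes 2 rose, 1 fell and 7 did not pass, with a median log2 fold change of -0.047 against -0.0058 over all genes tested. The CPM of the groups did not overlap for the same 3 genes. No test was made of the 10 genes as a group, and none of the changes past the threshold exceeded 1.23-fold.

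The starting sequences of these 3 genes are printed to show the regulatory DNA of the members that passed the test. Each is the RefSeq promoter window of the assembly GRCr8, 250 bases before to 50 bases after the annotated start, on the strand of the gene. Capitals mark GC boxes (letters GGGCGG), boxes of the letters CCAAT and cAMP response element half-sites (TGACG), searched on both strands, and none of the marked matches overlap. St8sia3 is read from chr18:60024305-60024604 on the plus strand, St8sia4 from chr9:103531959-103532258 on the minus strand, and Cmas from chr4:177449551-177449850 on the plus strand.
St8sia3: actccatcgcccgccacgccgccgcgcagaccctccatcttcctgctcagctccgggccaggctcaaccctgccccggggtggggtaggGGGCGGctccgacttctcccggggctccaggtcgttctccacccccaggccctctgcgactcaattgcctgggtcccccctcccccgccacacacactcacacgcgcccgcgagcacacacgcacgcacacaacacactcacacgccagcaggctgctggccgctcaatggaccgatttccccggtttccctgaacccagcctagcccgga
St8sia4: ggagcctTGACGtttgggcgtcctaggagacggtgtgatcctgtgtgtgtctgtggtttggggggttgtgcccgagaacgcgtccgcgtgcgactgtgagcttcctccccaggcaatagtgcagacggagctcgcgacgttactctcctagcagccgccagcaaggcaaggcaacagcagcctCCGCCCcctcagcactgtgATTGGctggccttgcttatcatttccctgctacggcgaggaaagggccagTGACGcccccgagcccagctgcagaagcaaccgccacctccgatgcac
Cmas: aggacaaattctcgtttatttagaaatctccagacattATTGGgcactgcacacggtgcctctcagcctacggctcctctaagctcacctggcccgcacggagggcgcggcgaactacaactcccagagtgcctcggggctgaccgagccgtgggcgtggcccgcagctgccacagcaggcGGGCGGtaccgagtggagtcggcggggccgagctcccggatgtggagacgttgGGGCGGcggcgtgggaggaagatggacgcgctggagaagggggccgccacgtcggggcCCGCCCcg

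All 3 windows were rich in CpG, with 25 in St8sia3, 21 in St8sia4 and 31 in Cmas, against a median of 7 over 33469 promoters. The matched members that did not pass were also rich in CpG, from 22 in St8sia2 to 44 in Ncam2. St8sia4, the gene that fell, held 2 cAMP response element half-sites, which occur in 21.2% of all promoters, and the windows of St8sia3 and Cmas held 0. Among members that did not pass, St8sia1, St8sia5 and Nans held 1 each, and Ncam2, St8sia2 and Gne held 0. GC boxes, found in 33.1% of promoters, occurred 1 time in St8sia3, 1 time in St8sia4 and 3 times in Cmas. CCAAT boxes, found in 37.5% of promoters, occurred 1 time each in St8sia4 and Cmas and 0 times in St8sia3. No AP-1 site (TGANTCA, in 7.33% of promoters) lay in any of them. These letters are a description of the windows and show neither binding nor a cause. TGACG and GGGCGG each contain a CpG, and the shares over all promoters were not matched for CpG number. RefSeq windows were matched for 9 of the 10 genes, the exception being Ncam1.

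The carriers come first. Ncam1 (ENSRNOG00000031890) encodes the main protein carrier of polysialic acid. It stood at 556, 552, 548, 548 and 544 CPM in dehydrated libraries and at 550, 574, 570, 558 and 579 CPM in euhydrated libraries. The dehydrated libraries lay within a narrow band at the low end of the euhydrated ones, and the groups overlapped only through euhydrated 1. The log2 fold change was -0.043 ± 0.025 (SE), with a 95% interval of -0.096 to 0.0099 (edgeR adjusted p = 0.292). This was the most precisely measured gene of the pathway, with 13004 to 16335 reads per library and a coefficient of variation of 0.811% in dehydrated and 2.1% in euhydrated libraries.

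Ncam2 (ENSRNOG00000002126) encodes a related adhesion molecule known from olfactory axons and not known as a main carrier of polysialic acid. Its level was 92.9, 80.9, 81.0, 95.8 and 89.2 CPM in dehydrated libraries and 88.2, 83.4, 82.0, 92.1 and 82.7 CPM in euhydrated libraries. The groups overlapped throughout, and the log2 fold change was 0.038 ± 0.051 (SE; 95% interval -0.071 to 0.15; edgeR adjusted p = 0.70). The ratio of Ncam2 to Ncam1 reads in a library averaged 0.160 ± 0.0124 in dehydrated and 0.152 ± 0.0104 in euhydrated libraries (SD, n = 5 each). The intervals of both genes thus held no change above 0.15 on the log2 scale in either direction.

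Both polysialyltransferases were read at lower counts. St8sia4 (ENSRNOG00000019128), for the enzyme that prevails in the adult brain, stood at 11.29, 13.00, 12.97, 12.60 and 12.40 CPM in dehydrated libraries. In euhydrated libraries it stood at 15.03, 13.42, 14.79, 15.03 and 18.01 CPM. Every dehydrated library was below every euhydrated one, with dehydrated 1 the lowest and euhydrated 5 the highest. The group means were 12.5 ± 0.70 CPM in dehydrated and 15.3 ± 1.68 CPM in euhydrated libraries (SD, n = 5 each). St8sia4 thus had a log2 fold change of -0.29 ± 0.08 (SE, 95% interval -0.46 to -0.13; edgeR adjusted p = 0.0196).

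The fall of St8sia4 rested on 299 to 351 reads per dehydrated library and 375 to 497 reads per euhydrated library. The call was lost without dehydrated 1 (log2 fold change -0.26, edgeR adjusted p = 0.0511) and kept in the other 9 fits that left out a single library. In the authors' deposited table the gene has a log2 fold change of -0.29 and an adjusted p of 0.00729.

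St8sia2 (ENSRNOG00000012031) encodes the polysialyltransferase known to prevail in the developing brain. It was thinly read, with 27 to 46 reads per dehydrated library and 28 to 67 reads per euhydrated library. Its level was 1.602, 1.05, 1.66, 1.14 and 1.84 CPM in dehydrated libraries and 1.01, 2.40, 1.22, 1.90 and 1.49 CPM in euhydrated libraries. The groups overlapped and the log2 fold change of -0.13 ± 0.24 (SE) had a 95% interval of -0.64 to 0.38 (edgeR adjusted p = 0.782). At this depth a fall as large as that of St8sia4 was not detectable. The ratio of St8sia2 to St8sia4 reads averaged 0.118 ± 0.0306 in dehydrated and 0.108 ± 0.0455 in euhydrated libraries (SD, n = 5 each), with overlapping values.

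**Figure D1:**
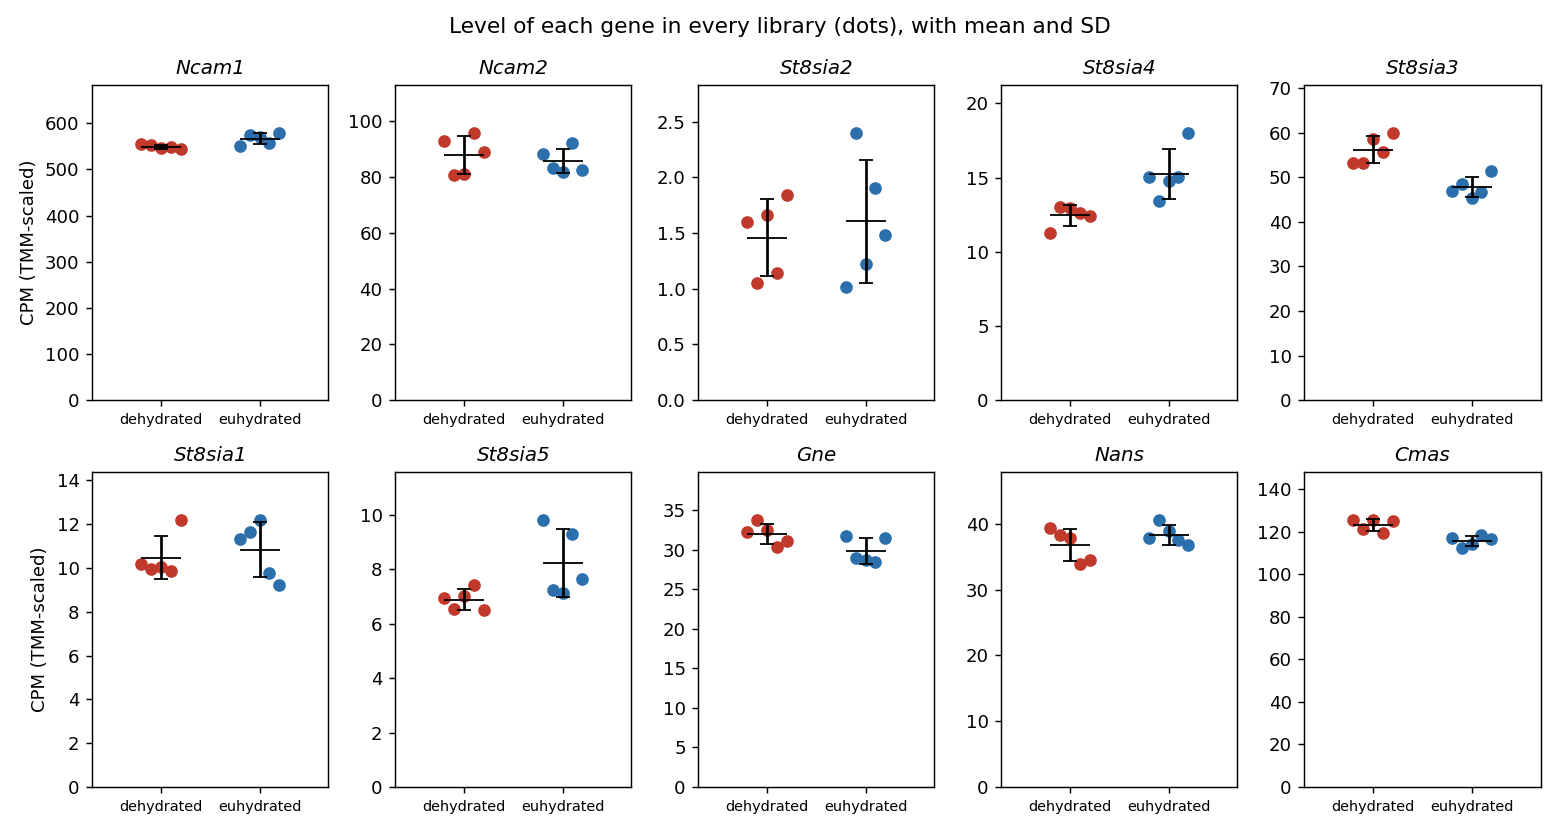
Level of each of the 10 genes in CPM (y axis, each from 0) in the 5 dehydrated (red) and 5 euhydrated (blue) libraries; dots are libraries, and black lines are the group mean and SD. The groups separate for St8sia4, St8sia3 and Cmas, with St8sia4 at 12.5 CPM in dehydrated and 15.3 CPM in euhydrated libraries on average.

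The other members of the family do not build polysialic acid on NCAM in the main. St8sia3 (ENSRNOG00000018305) encodes an alpha-2,8-sialyltransferase of the brain that makes disialyl and trisialyl chains on glycolipids and glycoproteins. It stood at 53.3, 53.3, 58.6, 55.8 and 60.0 CPM in dehydrated libraries and at 46.9, 48.6, 45.4, 46.8 and 51.4 CPM in euhydrated libraries. Every dehydrated library was above every euhydrated one. The means were 56.2 ± 3.06 CPM in dehydrated and 47.8 ± 2.29 CPM in euhydrated libraries (SD, n = 5 each), with a log2 fold change of 0.23 ± 0.05 (SE; 95% interval 0.13 to 0.33; edgeR adjusted p = 0.00345). Only 3.81% of all genes tested had a smaller p. The call held in all 10 fits that left out a single library, at adjusted p of 0.00185 to 0.0121.

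St8sia1 (ENSRNOG00000014018) encodes GD3 synthase, which adds a second sialic acid to the ganglioside GM3. It stood at 10.2, 9.97, 10.1, 9.86 and 12.2 CPM in dehydrated libraries and at 11.3, 11.6, 12.2, 9.78 and 9.24 CPM in euhydrated libraries. The groups overlapped throughout (log2 fold change -0.051 ± 0.090, SE; edgeR adjusted p = 0.772). The value moved with single libraries, to -0.11 without dehydrated 5 (the highest dehydrated library) and to -0.0030 without euhydrated 3, and it passed in none of the 22 alternatives.

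St8sia5 (ENSRNOG00000022691) encodes a sialyltransferase of more complex gangliosides. Its level was 6.95, 6.54, 7.02, 7.42 and 6.52 CPM in dehydrated libraries and 9.83, 7.23, 7.15, 9.32 and 7.64 CPM in euhydrated libraries. All dehydrated libraries but dehydrated 4 were below every euhydrated one, and euhydrated 1 and 4 stood well above the other three. The log2 fold change was -0.26 ± 0.10 (SE), and it did not pass (unadjusted p = 0.0218, edgeR adjusted p = 0.112).

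**Figure D2:**
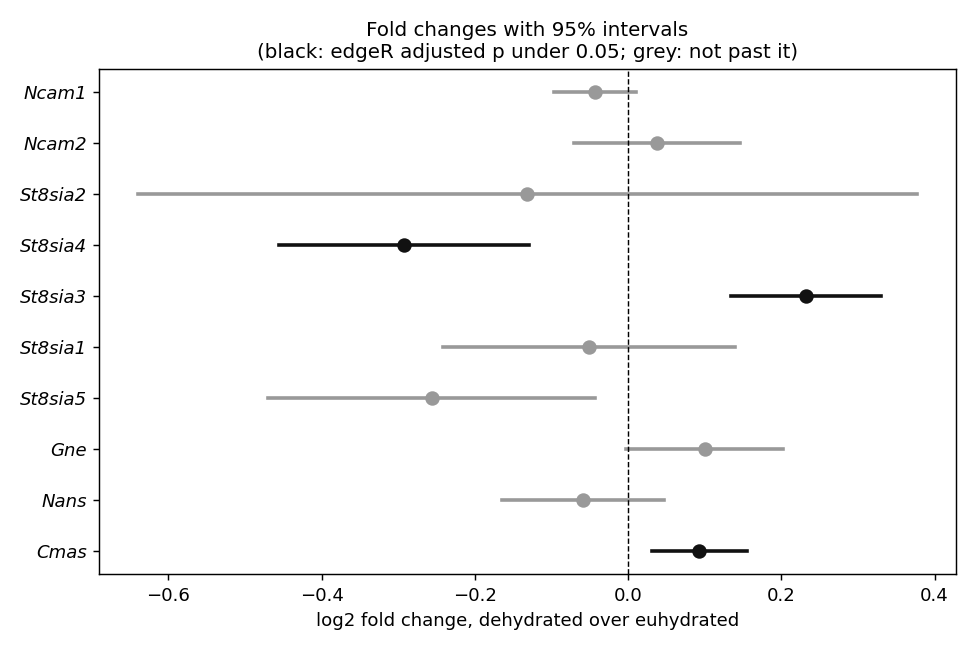
Log2 fold change of dehydrated over euhydrated libraries (x axis) for each of the 10 genes, with 95% intervals from edgeR. Black marks the 3 genes past the adjusted threshold, at -0.29 for St8sia4, 0.23 for St8sia3 and 0.093 for Cmas; the interval of St8sia2 is the widest and that of Ncam1 the narrowest.

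Of the 3 genes of sialic acid supply, 1 passed. Cmas (ENSRNOG00000013816) encodes the synthetase that joins sialic acid to CMP, the donor form used by all sialyltransferases. It stood at 126, 121, 125, 119 and 125 CPM in dehydrated libraries and at 117, 112, 114, 118 and 116 CPM in euhydrated libraries. Every dehydrated library was above every euhydrated one, by a small margin between dehydrated 4 and euhydrated 4. This gave a log2 fold change of 0.093 ± 0.029 (SE, 95% interval 0.031 to 0.15; edgeR adjusted p = 0.047).

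The call of Cmas lay at the threshold and was fragile. It was lost in 9 of the 10 fits that left out a single library, all except the one without dehydrated 4, where adjusted p was 0.0381; over the 10 fits it ran from 0.0381 to 0.11. It was also lost with library totals in place of TMM (log2 fold change 0.066, edgeR adjusted p = 0.196) and without a filter on low counts (0.088). The authors' deposited table gives it a log2 fold change of 0.09 and an adjusted p of 0.0269.

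Gne (ENSRNOG00000014365) encodes the bifunctional epimerase and kinase that controls the rate of sialic acid synthesis. Its level was 32.2, 33.8, 32.5, 30.4 and 31.1 CPM in dehydrated libraries and 31.7, 29.0, 28.7, 28.4 and 31.5 CPM in euhydrated libraries. The groups overlapped through euhydrated 1 and 5. With a log2 fold change of 0.10 ± 0.05, the gene did not pass (SE; 95% interval -0.0025 to 0.20; edgeR adjusted p = 0.202).

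Nans (ENSRNOG00000008945) encodes the synthase of a following step, which makes sialic acid 9-phosphate. It stood at 39.4, 38.3, 37.8, 33.9 and 34.4 CPM in dehydrated libraries and at 37.8, 40.6, 39.0, 37.5 and 36.8 CPM in euhydrated libraries. Dehydrated 4 and 5 were below all euhydrated libraries and the other three within their range. The log2 fold change of -0.059 ± 0.050 (SE) did not pass (edgeR adjusted p = 0.495).

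Markers of 10 cell types were compared, since punches can differ in what they take. Calls of single markers stand beside the 12.7% of all genes tested that passed in edgeR. The erythrocyte list was lower in dehydrated libraries, with a mean of 5.08 ± 0.56 log2 CPM in dehydrated and 5.98 ± 0.48 log2 CPM in euhydrated libraries (SD, n = 5 each; exact permutation p = 0.0397, adjusted p = 0.198 over 10 lists). Its 5 matched markers summed to 571 to 1388 CPM in dehydrated and 978 to 1954 CPM in euhydrated libraries, and none was at 0 throughout. The 8 oligodendrocyte markers summed to 9310 to 11875 CPM in dehydrated and 9766 to 14259 CPM in euhydrated libraries, and 2 of them fell. Their mean log2 CPM differed by -0.17 (exact permutation p = 0.119, adjusted p = 0.286). The endothelial list lay 0.078 log2 CPM higher in the dehydrated group (p = 0.0952 by exact permutation, adjusted p = 0.286), and 1 of its 6 markers, Kdr, rose. Of 8 microglial markers 0 passed in edgeR and 5 had an unadjusted p under 0.05, as did 4046 of all 15311 genes tested. The mean log2 CPM of the microglial markers differed by -0.098 (exact permutation p = 0.143, adjusted p = 0.286). The other 5 lists not described here had an exact permutation p of 0.294 to 0.619. The magnocellular list was 0.52 log2 CPM higher in dehydrated libraries, with complete separation of the groups (exact permutation p = 0.00794, the smallest that 5 against 5 libraries allow; adjusted p = 0.0794). That difference was carried mainly by Caprin2 and Pdyn, with log2 fold changes of 1.81 and 1.03, the only 2 of its 7 markers past the threshold. Both are known to respond to dehydration. Avp and Oxt had log2 fold changes of 0.46 and 0.18 and did not pass (edgeR adjusted p = 0.08 and 0.254). The transcription factor genes Sim1, Otp and Pou3f2, which mark the identity of these neurones, had log2 fold changes of 0.092, 0.072 and -0.046 and did not pass.

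The calls of the 3 genes, and some of their fold changes, depended on which marker level entered the fit. With the erythrocyte level as a covariate none of the 10 genes passed in edgeR, while 4 had an unadjusted p under 0.05. How many of all genes had such a p was not counted for that fit. Of all 15311 genes tested 1942 passed without the covariate and 682 with it. The log2 fold change of St8sia3 was then 0.18 ± 0.06 (SE; edgeR adjusted p = 0.138), that of St8sia4 -0.28 ± 0.11 (0.193) and that of Cmas 0.092 ± 0.042 (0.266). For St8sia4 and Cmas the log2 fold change was thus close to that without the covariate, at -0.29 and 0.093, and the SE was larger. For St8sia3 it was smaller than the 0.23 without the covariate, and its SE was also larger, at 0.064 against 0.046. With the oligodendrocyte level as a covariate the log2 fold change of St8sia4 was -0.20 ± 0.08 (SE, edgeR adjusted p = 0.136), smaller in size than without it and with a similar SE. St8sia3 stayed past the threshold in that fit at 0.26 ± 0.05 (SE, edgeR adjusted p = 0.00659). With the level of the magnocellular markers Sim1, Otp and Pou3f2 as a covariate St8sia4 (-0.32, edgeR adjusted p = 0.0077) and St8sia3 (0.21, 0.0024) both passed and Cmas did not (0.0644). The mean erythrocyte level was lower in the dehydrated group, but that difference did not pass after adjustment over the marker lists. A single list could not have passed, since the smallest possible exact permutation p, 0.00794, becomes 0.0794 when adjusted over 10 lists. Whether the erythrocyte covariate took up part of the group difference was not tested, nor was the part of these cells in the results.

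**Figure D3:**
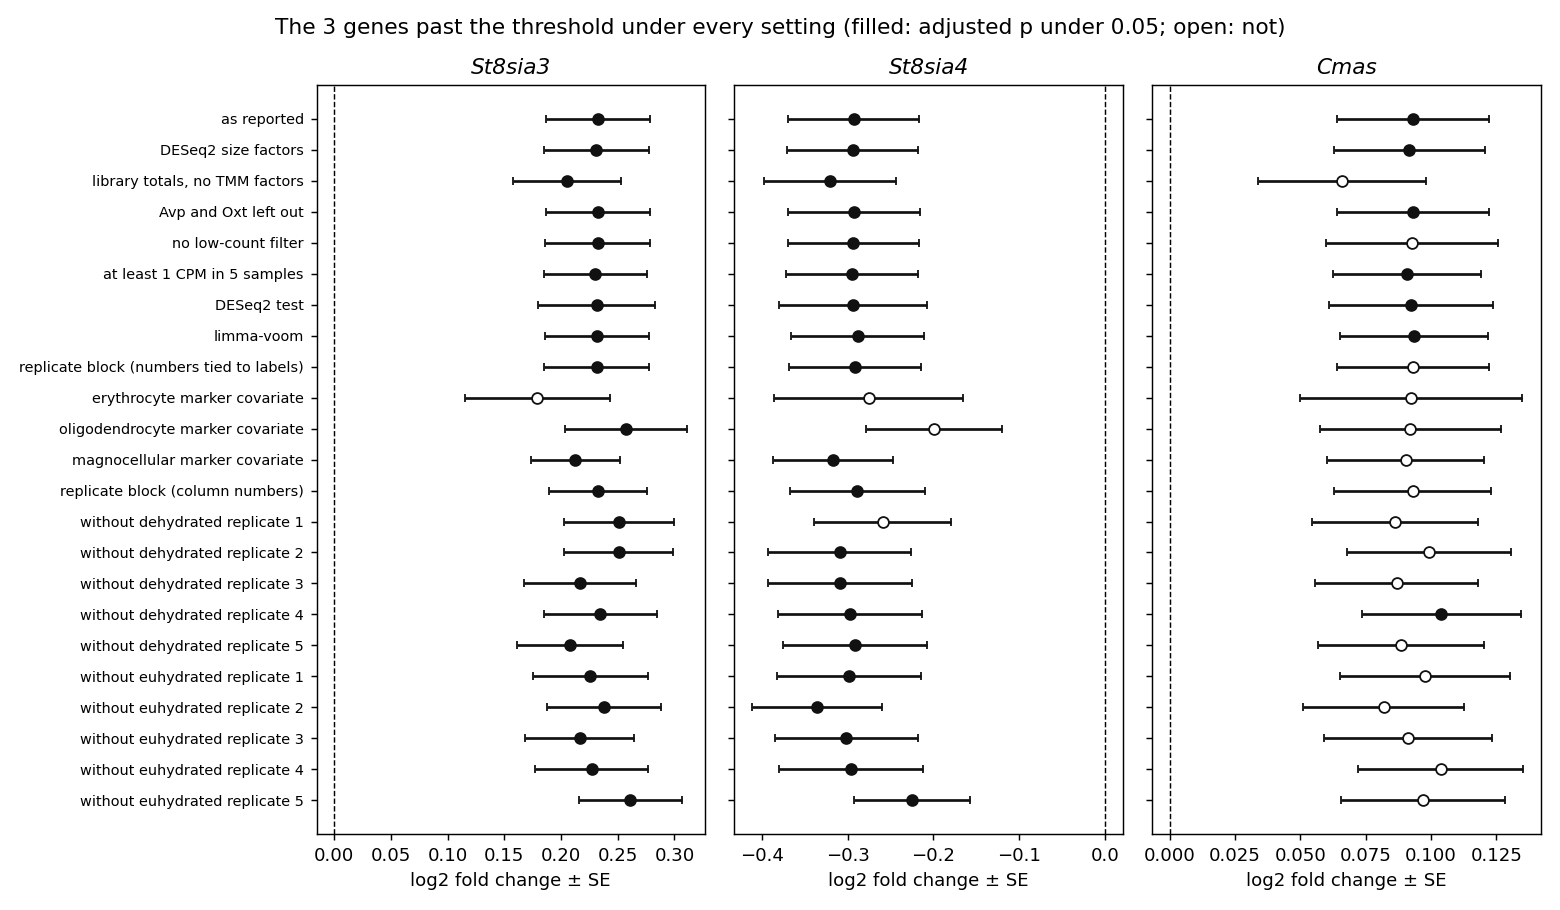
Log2 fold change with SE (x axis) of the 3 genes past the threshold under each processing setting (y axis), with filled points where the adjusted p was under 0.05. St8sia3 passed in 21 of 22 alternatives, St8sia4 in 19 and Cmas in 6, and all 3 kept their direction in all 22.

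The wider pathway was followed in 5 lists holding 60 tested genes, of which 9 rose, 4 fell and 47 did not pass. Their median log2 fold change was -0.018. Over all genes tested 12.7% passed, with 7.79% higher and 4.90% lower, and the counts of each list below stand beside these shares. None of these lists was tested as a group. Without euhydrated 2 the number past the threshold was 8 in place of 13, and with the erythrocyte covariate it was 0 in edgeR, with 15 at an unadjusted p under 0.05. Without the covariate 22 of the 60 had such a p, beside 4046 of all 15311 genes tested. The number of all genes with an unadjusted p under 0.05 was not counted with the covariate. In that fit 682 of all 15311 genes passed in edgeR, against 1942 without the covariate.

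Among 11 other genes of sialic acid supply, transport and removal 2 rose, both for sialidases, and 9 did not pass. Neu1, for the lysosomal sialidase, had 35.4, 34.5, 39.6, 39.1 and 37.8 CPM in dehydrated libraries and 30.0, 31.0, 30.9, 29.6 and 32.5 CPM in euhydrated libraries. Every dehydrated library was above every euhydrated one, and the log2 fold change was 0.28 ± 0.05 (SE; edgeR adjusted p = 0.00137, and 0.0783 with the erythrocyte covariate). Neu2, for a cytosolic sialidase, was low, at 3.18 ± 0.211 CPM in dehydrated and 2.25 ± 0.524 CPM in euhydrated libraries (SD, n = 5 each). Neu2 rose by 0.50 ± 0.16 on the log2 scale (SE; edgeR adjusted p = 0.0452), a call lost in 13 of the 22 alternatives, where its adjusted p reached 0.317; it was kept without euhydrated 1 or euhydrated 4 and lost without any of the other 8 libraries. Neu3, for the sialidase of the plasma membrane, was named after its values were seen, with a log2 fold change of -0.29 ± 0.15 (SE; unadjusted p = 0.0703).

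Of 14 sialyltransferases outside the 10 genes, 0 passed in edgeR and 0 in DESeq2, and 2 had an unadjusted p under 0.05 in edgeR. Over all 15311 genes tested in edgeR 12.7% passed and 4046 had an unadjusted p under 0.05. With library totals, with a block by column number, and without dehydrated 3, 1 of the 14 passed. The 2 with the highest mean CPM, a ranking that takes no account of gene length, are named here. They were St6galnac6, at 105 ± 4.56 CPM in dehydrated and 107 ± 2.64 CPM in euhydrated libraries, and St3gal5, for GM3 synthase, at 95.04 ± 4.67 CPM in dehydrated and 99.2 ± 3.64 CPM in euhydrated libraries (SD, n = 5 each). Both had log2 fold changes close to 0, at -0.029 ± 0.035 and -0.062 ± 0.039 (SE).

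Of 4 tested genes for other known carriers of polysialic acid, 1 fell and 3 did not pass. Nrp2, for neuropilin-2, a guidance receptor that is known to carry polysialic acid on human dendritic cells, had 71.03, 67.8, 58.0, 71.7 and 68.2 CPM in dehydrated libraries and 85.8, 74.7, 79.3, 81.1 and 74.7 CPM in euhydrated libraries. Every dehydrated library was below every euhydrated one. The log2 fold change was -0.23 ± 0.06 (SE; edgeR adjusted p = 0.0131), and the call was lost with the erythrocyte covariate (log2 fold change -0.27, edgeR adjusted p = 0.0703) and with the oligodendrocyte covariate (-0.21, 0.0639).

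Of 15 tested partners, sheddases and signalling genes of NCAM, 3 rose, 1 fell and 11 did not pass. The receptors through which NCAM is known to act moved in opposite directions. Fgfr1 was at 136 ± 7.37 CPM in dehydrated and 120 ± 6.02 CPM in euhydrated libraries, and Fgfr2 at 108 ± 8.12 CPM in dehydrated and 126 ± 9.88 CPM in euhydrated libraries (SD, n = 5 each). Their log2 fold changes were 0.18 ± 0.04 and -0.22 ± 0.06 (SE; edgeR adjusted p = 0.0112 and 0.0281). Ptpra, for a receptor phosphatase that binds NCAM, rose by 0.12 ± 0.03 (edgeR adjusted p = 0.014), and Sptbn1, for the spectrin that links NCAM to the membrane skeleton, by 0.11 ± 0.03 (0.034). Of the 22 alternatives Fgfr1 and Ptpra lost their calls only with the erythrocyte covariate, where the change was 0.18 ± 0.06 on the log2 scale for Fgfr1 (SE, adjusted p = 0.121 in edgeR) and, smaller than without the covariate, 0.077 ± 0.040 for Ptpra (0.335). The call of Fgfr2 was lost with the oligodendrocyte covariate, where its log2 fold change was -0.13 ± 0.05 (SE; edgeR adjusted p = 0.115), and with the erythrocyte covariate (-0.23, 0.177). It was also lost with a replicate block on the numbers tied by the labels (0.064), without dehydrated 1, and without euhydrated 1, 2 or 4, and held in 15 of the 22 alternatives, against 21 for Fgfr1. Sptbn1 lost its call with the erythrocyte covariate (0.12, edgeR adjusted p = 0.186), with library totals, without dehydrated 1 or 4, and without euhydrated 1, 2 or 3.

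Of 16 adhesion relatives of the immunoglobulin superfamily, 4 rose, 2 fell and 10 did not pass. Nfasc, for neurofascin of the axon initial segment and node, was 512 ± 25.1 CPM in dehydrated and 445 ± 13.2 CPM in euhydrated libraries (SD, n = 5 each), and rose by 0.20 ± 0.04 on the log2 scale (SE; edgeR adjusted p = 0.00123). Cntn2, a contactin, rose by 0.16 ± 0.05 (edgeR adjusted p = 0.0461), a call that held in 7 of the 22 alternatives and, of the 10 fits without a single library, in the one without dehydrated 1. Opcml and Negr1, for GPI-anchored adhesion proteins, fell, with log2 fold changes of -0.24 ± 0.06 (edgeR adjusted p = 0.0129) and -0.24 ± 0.05 (0.00556). L1cam and Lsamp, which also rose, were named after their values were seen (log2 fold changes 0.16 and 0.15, edgeR adjusted p = 0.0017 and 0.0309). All 6 lost their calls with the erythrocyte covariate. There Opcml (log2 fold change -0.29, edgeR adjusted p = 0.0506), Negr1 (-0.22, 0.105), Nfasc (0.18, 0.051) and Lsamp (0.14, 0.272) had changes of similar size to those without it, and Cntn2 (0.10, 0.46) and L1cam (0.10, 0.129) had changes over 1.5 times smaller. Opcml also lost its call with the oligodendrocyte covariate (-0.20, edgeR adjusted p = 0.0748). The call of Lsamp was also lost with library totals, without dehydrated 4 or 5 or without euhydrated 1, 2, 3 or 4.

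**Figure D4:**
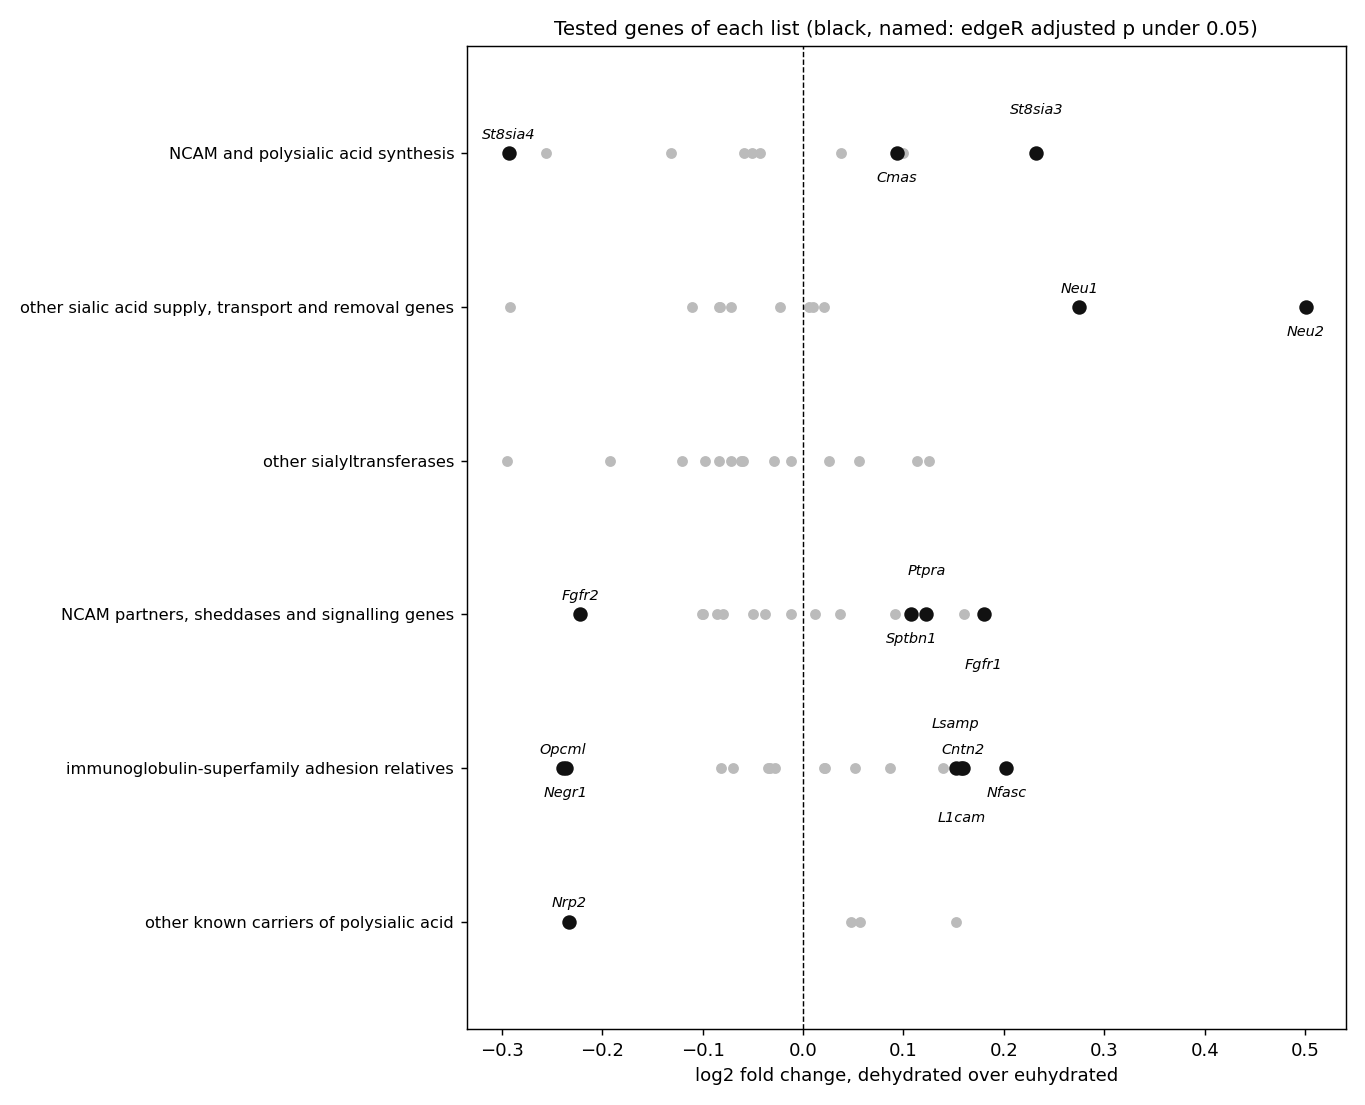
Log2 fold change of dehydrated over euhydrated libraries (x axis) for each tested gene of the 10 members and of 5 wider lists (y axis), 1 dot per gene, with genes past an edgeR adjusted p of 0.05 in black and named. No sialyltransferase outside the members is black, and the sialidase genes Neu1 and Neu2 lie at 0.28 and 0.50.

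The genes whose levels followed St8sia4, St8sia5 and St8sia3 most closely over the 10 libraries were sought among 11061 tested genes with a symbol and at least 5 CPM. Closest to St8sia4 were Shkbp1 (Pearson r = 0.935, Spearman rho = 0.794), Sema4d (0.935, 0.964) and Rps6ka5 (0.924, 0.903). Closest to St8sia5 were Gprin1 (0.956, 0.903), Dpf1 (0.954, 0.964) and Rgs14 (0.945, 0.976). Closest to St8sia3 were Uso1, for a Golgi tethering protein (0.975, 0.952), Dnajb11, for a chaperone of the endoplasmic reticulum (0.973, 0.927), and Psmd13, for a proteasome subunit (0.971, 0.988). These are the highest values out of many and include the group difference, so they describe a likeness of pattern and no p is given.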

How the data were processed

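The deposited values are counts of reads for each Ensembl gene, whole and not normalised. A second deposited table holds the authors' comparison as log2 fold changes, standard errors and adjusted p-values, per the file headers. Tools named in the submitters' processing notes are CASAVA, FastQC, STAR, featureCounts and DESeq2 (version 1.28.1). The library kit keeps strand, per the labels' protocols. Build, annotation and strand setting of the counting were not given in the sources used, and reads of overlapping or antisense genes cannot be told apart.

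Columns were tied to samples by name. Those numbered 3 to 5 of the euhydrated group were tied to the group only, since their numbers differ between labels, and libraries are named by column number. No 2 libraries of a group agreed within sampling noise: chi-square divided by its degrees of freedom was 4.86 to 12.1 for genes with 20 counts or more.

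All 32402 genes entered filterByExpr of edgeR 4.0.16 (R 4.3.3), which left 15311. These were scaled by TMM and tested with glmQLFit and glmQLFTest (robust, no covariate), with Benjamini-Hochberg adjustment across the whole table. Log2 CPM used a prior count of 2, and 95% intervals used the fit's own degrees of freedom. Marker levels (mean log2 CPM of a list) were compared by exact two-sided permutation over all labellings of the 10 libraries. The code was checked on simulated counts, with changes larger than those of the members past the threshold, so the check does not cover changes of their size. Alternatives were DESeq2 1.42.0, limma-voom (limma 3.58.1), other scalings, filters, marker covariates and blocks, and each library left out. The block by column number, and all alternatives but 3 kinds for the wider lists, were added after the data were seen.

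Members and lists were chosen with earlier results of these data known. All members are named. Of each wider list the genes past the threshold with the largest changes, up to 4, or, where none passed, the 2 most abundant, are named. For the 3 members with the largest changes, the 3 most alike genes are named. List members without a match (Gfra1 and 5 markers) were not analysed here. Esl1 had no match under that name, but it is another name of Glg1, which was tested (log2 fold change 0.057, edgeR adjusted p = 0.213).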

Additional observations from a re-analysis of the deposited data

Results flagged for a closer look

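Over 20 sets of 5 libraries (10 genes in each group), 1 library stood far from the others of its group by Dixon's test, where chance gives about 1 in 20. St8sia1 was 12.2 CPM in dehydrated 5, and 9.86 to 10.2 CPM in the other dehydrated libraries.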

How the results depend on the processing

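Of the 10 genes 3 passed as reported. With the erythrocyte covariate 0 passed (4 at an unadjusted p under 0.05 in edgeR, not counted over all genes). With the oligodendrocyte covariate 1 passed, and at an adjusted threshold of 0.01 it was 1. Leaving out 1 library gave 1 to 3, with 1 without dehydrated 1. Over all genes 1942 passed, with 682 under the erythrocyte covariate, 891 at the 0.01 threshold, and 1494 to 1756 when 1 library was left out. Of the wider lists 13 genes passed, 0 with the erythrocyte covariate and 8 to 12 when 1 library was left out. Under the 22 alternatives no direction turned among the 3 members past the threshold, the genes named from the wider lists that passed, and Dcx, Sox11 and Tubb3; the genes named for likeness were not refitted. The 3 genes without overlap were 3 to 4 when 1 library was left out, a number that could not fall except through rescaling. In the exact permutation test 0 marker lists passed after adjustment (2 unadjusted). A single list could not pass there, since the smallest exact permutation p of 0.00794 becomes 0.0794 over 10 lists. Samples numbered alike share only a number: the deviations of the pairs tied by the labels correlated at -0.0682 and 0.141. With a replicate block on those numbers 2 of the 10 genes passed, the call of Cmas being lost (edgeR adjusted p = 0.0524), and 1861 of all genes; by column number 2 and 1956. St8sia2, at 27 to 67 reads per library, limits what can be seen of that gene. The cause of these shifts was not tested.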

Other observations

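Polysialylated NCAM is also known as a mark of immature neurones, so 6 genes of such cells were followed (Dcx, Sox11, Tubb3, Stmn2, Neurod1 and Igfbpl1). Of these 1 rose, 2 fell and 3 did not pass, where 12.7% of all genes tested passed. Dcx, Sox11 and Tubb3 were chosen for description after their values were seen, and the 6 were not tested as a group in edgeR. The mean log2 CPM of the 6 differed by -0.058, dehydrated minus euhydrated (exact permutation p = 0.413, adjusted p = 0.459 over 10 lists). Stmn2, Neurod1 and Igfbpl1, the 3 that did not pass, had log2 fold changes of 0.053, -0.067 and 0.17. Dcx, for doublecortin, was 37.5 ± 2.63 CPM in dehydrated and 44.2 ± 4.65 CPM in euhydrated libraries (SD, n = 5 each; log2 fold change -0.24 ± 0.07, SE; edgeR adjusted p = 0.0342). Sox11, a transcription factor gene, was low, at 3.04 ± 0.19 CPM in dehydrated and 4.10 ± 0.711 CPM in euhydrated libraries (log2 fold change -0.43 ± 0.13, SE; edgeR adjusted p = 0.0372). Tubb3, for a neuronal tubulin that mature neurones also make, was 582 ± 24.9 CPM in dehydrated and 513 ± 19.4 CPM in euhydrated libraries (log2 fold change 0.18 ± 0.03, SE; edgeR adjusted p = 0.00255). All 3 lost their calls with the erythrocyte covariate, at log2 fold changes of -0.27 for Dcx (edgeR adjusted p = 0.153), -0.31 for Sox11 (0.395) and 0.17 for Tubb3 (0.063). Dcx and Sox11 also lost them with the oligodendrocyte covariate (-0.21 and -0.31, edgeR adjusted p = 0.136 and 0.192), Dcx with a replicate block on the numbers tied by the labels (0.0507), and Sox11 in limma-voom. Dcx passed in 3 of the 10 fits that left out a single library (those without dehydrated 5, euhydrated 1 or euhydrated 4) and Sox11 in 2 (those without euhydrated 1 or 2), while Tubb3 passed in all 10.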
